A study of Mus musculus with 16 samples.

Results

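Loss of the nuclear receptor SHP was examined in the livers of mice that ate chow, as the difference between 4 SHP knockout and 4 wild type arrays out of 16 in the series. SHP, the product of Nr0b2, binds other nuclear receptors without binding DNA itself and represses their target genes. In liver it is induced by bile acids through the receptor FXR and holds down Cyp7a1, which catalyses the step that sets the rate of bile acid production. The comparison asked which liver genes, beyond that known loop, stood higher or lower without SHP when no dietary load was applied, and which of them lie beside Nr0b2 on its chromosome.

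All mice were males aged 10 months with the strain label C57Bl/6Hsd, and they had fasted overnight before the livers were collected. The groups used were WT_Chow (wild type, chow) and SHPKO_Chow (genotype SHP-/-, chow), with WT_WestD and SHPKO_WestD, the same genotypes on a western diet, as a second set of mice. The diets ran for 6 months from the age of 4 months. Each array carried RNA of 1 mouse, hybridised to an Illumina BeadChip, with 4 mice per group. SHP was lacking in the whole animal as far as the labels say, and how the allele was made is not given in the sources used here.

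Before normalization the 4 wild type arrays on chow had mean signals of 262 to 354 and the 4 knockout arrays 264 to 327. A detection p below 0.05 was reached by 43.6% to 46.6% of probes on the wild type arrays and by 44.8% to 46.9% on the knockout arrays. No array out of 16 detected the only Nr0b2 probe, which had a raw signal of 51.4, 51.1, 51.1 and 47.8 in wild type and 53.2, 54.5, 54.7 and 59.7 in knockout on chow, so it checked neither the deletion nor the labels. Of 14 hepatocyte markers on the array 12 were detected.

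Levels below are normalized log2 intensities, given per array in the order of replicates 1 to 4, and a difference is knockout minus wild type on that scale, ± its standard error from the limma fit. A gene passed when its adjusted p (limma, Benjamini-Hochberg over 9095 genes) was below 0.05. Of those 9095 genes 76 passed, 0.836%, with 40 higher in knockout (0.440%) and 36 lower (0.396%). Of the 76, 19 rose and 18 fell by more than 2-fold, and in 73 the 4 knockout arrays did not overlap the 4 wild type arrays. Such separation was seen in 593 genes (6.52%), and the median difference over all genes was 0.0057. An unadjusted p below 0.05 was reached by 972 genes (10.7%). Another detected probe was available for 16 of the 76 genes, and in 0 of them did it point the other way, but it often gave a smaller difference, as given with Asns, Hr, Serpina12, Slc39a4, Pparg, Sqle and Tgfbr2. It also gave less for Fmo5 (0.35), Frat1 (0.48), Wwc1 (0.38), Serinc2 (-1.73) and Plekhf1 (-0.97). The 2 other probes of C9 gave -0.62 and -0.24, and those of Pde4dip -0.49 and -0.07. For Herpud1 (-0.75) and Ces1c (-0.67) the other probe gave slightly more. The count of genes that passed depended on single arrays: it was 49 without wild type replicate 3 on chow and 108 without knockout replicate 3 on western diet. Of 29 alternative fits, which changed 1 processing step or left out 1 array, 34 of the 76 genes passed in every one that tested them. The call was lost in 1 alternative for App, Ces1b, Ddah1, Epop, Fam25c, Scarb1, Sqle, St6gal1 and Zbtb8os, and in 2 to 4 for Ces1c, Map3k6 and Litaf. It was lost in 5 to 9 for Cyp2f2, Abcg5, Aox3, Cd52, Aatk, Chac1, Osgin1, Wwc1, C9, Crip2, Frat1, Dnajc30, Paqr7, Parp16, Slc17a8 and Ywhag. It was lost in 10 to 20 for Hsd17b6, Sh3bgrl3, Fmo5, Pde4dip, Slc22a23, Tgfbr2, Fign, Lrg1, Dhcr7, Herpud1, Capn10, Mknk2 and Ttpa, with Ttpa at 20, and in 17 of the 28 that could test it for Bin3.

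The largest difference of all was in Asns, asparagine synthetase, which makes asparagine from aspartate. Its level was 7.49, 7.12, 7.27 and 8.01 in wild type and 10.74, 10.94, 10.84 and 10.86 in knockout. Every knockout array lay above every wild type array, and Asns rose by 3.37 ± 0.36 (10.3-fold, adjusted p = 1.09e-05). Its 2 other detected probes gave 1.78 and 3.36. Asns is a standard target of ATF4, the transcription factor of the amino acid and unfolded protein responses. The part of ATF4 in the rise of Asns was not tested. Of 31 tested genes in the list of amino acid response and ATF4 targets, 1 rose and 2 fell, against 0.836% of all genes, and the list's median difference was -0.02. An unadjusted p below 0.05 was reached by 10 of the 31, against 10.7% of all genes.

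The 2 members that fell were Chac1, an enzyme that degrades glutathione, and Herpud1, a component of the machinery that removes misfolded proteins from the endoplasmic reticulum. Chac1 stood at 6.28, 7.21, 6.89 and 7.07 in wild type and 5.37, 5.56, 6.52 and 5.43 in knockout. Knockout replicate 3 reached into the wild type range, the other knockout arrays lay below it, and Chac1 fell by 1.14 ± 0.23 (adjusted p = 0.0189). For Herpud1 the levels were 13.33, 13.63, 13.44 and 13.68 in wild type and 12.85, 13.001, 13.14 and 12.17 in knockout. The groups did not overlap, and Herpud1 fell by 0.73 ± 0.16 (adjusted p = 0.0384). Both falls were open to single arrays: the adjusted p missed 0.05 in 6 of 16 fits that left out 1 array for Chac1 and in 8 of 16 for Herpud1, with values of up to 0.0867 (without knockout replicate 4 on chow) and 0.132 (without wild type replicate 2 on chow). They also missed it with the processed values of the authors, at 0.0718 and 0.113. Members that did not pass, chosen after their values were seen, included Atf4 itself 0.10 ± 0.14 (adjusted p = 0.871), the serine synthesis enzymes Phgdh -0.19 ± 0.15 (0.724) and Psat1 -0.03 ± 0.16 (0.963), and the transporter subunit Slc7a5 0.03 ± 0.15 (0.962). Such picked members do not stand for the list. Of its 31 tested genes 10 reached an unadjusted p below 0.05, and those that did so without passing are not named here.

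The promoter windows of these 3 genes, of which Asns rose and the other pair fell, are shown because each holds a match to the element that ATF4 binds with C/EBP partners. The element was searched as TGATGNAA on both strands in windows of 300 bases, from 250 bases before to 50 after each start site, taken from RefSeq on GRCm38.p6. Capitals mark the match.
Asns (chr6:7693160-7693459, minus strand): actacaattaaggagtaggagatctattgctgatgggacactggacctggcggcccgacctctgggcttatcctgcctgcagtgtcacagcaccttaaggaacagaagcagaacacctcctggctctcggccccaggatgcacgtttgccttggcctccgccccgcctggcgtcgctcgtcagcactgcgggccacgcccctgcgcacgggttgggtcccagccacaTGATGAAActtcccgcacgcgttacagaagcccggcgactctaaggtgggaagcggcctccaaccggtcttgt
Chac1 (chr2:119350992-119351291, plus strand): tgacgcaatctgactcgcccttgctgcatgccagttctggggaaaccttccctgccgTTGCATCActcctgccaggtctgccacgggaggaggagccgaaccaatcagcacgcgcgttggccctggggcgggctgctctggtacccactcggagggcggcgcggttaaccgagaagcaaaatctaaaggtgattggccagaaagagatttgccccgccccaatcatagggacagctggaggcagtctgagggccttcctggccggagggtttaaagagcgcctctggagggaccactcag
Herpud1 (chr8:94386179-94386478, plus strand): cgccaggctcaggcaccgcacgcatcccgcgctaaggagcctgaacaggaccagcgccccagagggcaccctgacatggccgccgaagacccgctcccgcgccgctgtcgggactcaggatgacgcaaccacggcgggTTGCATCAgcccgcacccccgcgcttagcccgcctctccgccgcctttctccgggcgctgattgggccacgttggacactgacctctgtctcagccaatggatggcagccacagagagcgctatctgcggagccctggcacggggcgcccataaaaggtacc
In Asns the match, TGATGAAA, begins 23 bases before the start site on the strand of the gene. Chac1 and Herpud1 carry TTGCATCA, the match on the opposite strand, 193 and 112 bases before the start. The element stood in 4 of the 63 genes that passed and had a window, the fourth being Slco2a1. That was 4 of their 82 windows (4.88%), against 3.97% of the 32851 windows in the table. A match describes these letters alone and is not evidence of binding. The same search for CAAGGNCA, an element of LRH-1 (Nr5a2, a partner that SHP represses), found it in 6 of those genes, Dhcr7, Csad, Hsd17b6, Bsdc1, Enpp6 and Pde4dip. That was 7 of their 82 windows (8.54%), against 6.71% of all windows. TCACNCCAC, a sterol regulatory element, was found in 1 gene, Paqr7, and in 1.24% of windows. The direct repeat bound by PPAR and RXR was found in 0 genes and 0.0396% of windows. Not searched, for want of a window, were Bin3, Cd52, Cyp7a1, Dnajc30, Epop, Hr, Nudt18, Olig1, Scarb1, Slc39a4, Sqle, Ttpa and Xkr8.

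Among genes away from Nr0b2, the next largest rises after Asns were in Hr, Cyp7a1, Cav1 and Csad. Hr encodes hairless, a corepressor of nuclear receptors, and stood at 5.79, 5.28, 5.47 and 5.56 in wild type and 8.97, 8.69, 8.62 and 8.87 in knockout. The arrays of the 2 genotypes lay far apart, a rise of 3.26 ± 0.22 (9.60-fold, adjusted p = 5.14e-08). A second Hr probe gave 1.38. For Cyp7a1 the arrays read 7.33, 8.41, 7.62 and 7.58 in wild type and 10.10, 9.52, 11.30 and 10.62 in knockout. Knockout arrays spread widely yet all exceeded wild type, and Cyp7a1 rose by 2.65 ± 0.38 (6.27-fold, adjusted p = 0.000557). Cav1, caveolin-1 of the plasma membrane invaginations called caveolae, stood at 5.38, 5.87, 5.32 and 6.12 in wild type and 8.53, 7.63, 8.03 and 8.11 in knockout. It rose by 2.40 ± 0.20 (5.29-fold, adjusted p = 4.65e-07) with no overlap. Csad, the decarboxylase that makes hypotaurine on the way to taurine, with which mice conjugate bile acids, stood at 10.47, 10.60, 10.83 and 10.79 in wild type and 12.35, 12.85, 12.57 and 12.64 in knockout. Its rise of 1.93 ± 0.13 (3.81-fold, adjusted p = 4.22e-08) was more than 10 times its standard error.

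**Figure D1:**
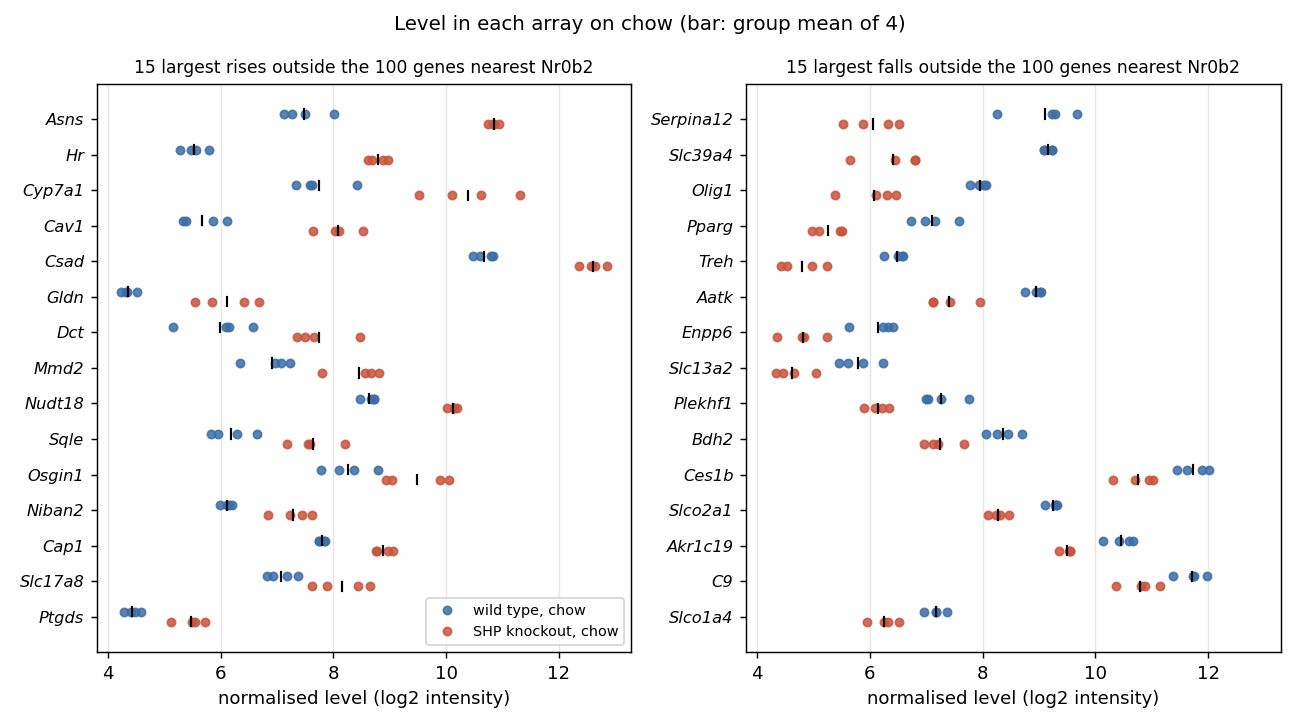
Normalized level (log2 intensity, horizontal axis) in each chow array for the 15 largest rises and 15 largest falls among genes that passed, whose groups did not overlap and that lie outside the 100 measured genes nearest Nr0b2. Blue points are wild type, red points knockout, and bars are means of 4; Asns at the top left lies between 7.12 and 8.01 in wild type and between 10.74 and 10.94 in knockout.

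Several further rises concerned genes with known work outside liver metabolism. Dct, dopachrome tautomerase of melanin synthesis, stood at 6.09, 5.15, 6.15 and 6.58 in wild type and 8.48, 7.35, 7.49 and 7.66 in knockout. It rose by 1.75 ± 0.27 (3.37-fold, adjusted p = 0.00129) without overlap. Gldn, gliomedin of the nodes of Ranvier, was not above background in any wild type array, with a mean of 4.35 ± 0.12 there and 6.12 ± 0.51 in knockout (SD, n = 4). It was at least 2.56-fold higher in knockout (adjusted p = 8.56e-05). Ptgds, a prostaglandin D synthase, was likewise not above background in wild type (4.44 ± 0.13, against 5.47 ± 0.25 in knockout, SD, n = 4) and was at least 1.63-fold higher (adjusted p = 0.000687). Slc17a8, a vesicular glutamate transporter, rose by 1.07 ± 0.24 (adjusted p = 0.0376), and Mmd2, of the progestin and adipoQ receptor family, by 1.56 ± 0.24 (adjusted p = 0.00129). Slc17a8 missed 0.05 in 6 of 16 fits without 1 array (up to 0.130, without knockout replicate 4 on chow) and with the authors' processed values (0.118).

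Nudt18, a hydrolase of oxidised nucleotides, stood at 8.66, 8.47, 8.71 and 8.71 in wild type and 10.14, 10.20, 10.13 and 10.01 in knockout. The 4 knockout arrays stayed within a narrow band above wild type, a rise of 1.48 ± 0.15 (2.79-fold, adjusted p = 6.04e-06). Nudt18 and Hr are next to each other on chromosome 14 in the order of measured genes, and both rose. Cap1, a regulator of actin turnover and adenylyl cyclase, rose by 1.10 ± 0.11 (adjusted p = 5.23e-06) and Niban2 by 1.17 ± 0.18 (adjusted p = 0.000881). Osgin1, an oxidative stress induced growth inhibitor, stood at 8.79, 8.11, 8.37 and 7.78 in wild type and 10.05, 9.04, 8.94 and 9.89 in knockout. It rose by 1.22 ± 0.25 (adjusted p = 0.0232), but missed 0.05 in 5 of 16 fits without 1 array, with up to 0.0973 (without knockout replicate 4 on chow), and with the authors' processed values (0.0991).

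The largest fall was in Serpina12, which encodes vaspin, a secreted serine protease inhibitor studied for its link with insulin sensitivity. Its arrays read 9.67, 9.24, 8.25 and 9.28 in wild type and 6.31, 6.52, 5.53 and 5.88 in knockout. Wild type replicate 3 was the lowest of its group and still exceeded every knockout array, and Serpina12 fell by 3.05 ± 0.30 (8.28-fold lower, adjusted p = 5e-06). A second probe gave -0.29. Slc39a4, the zinc importer ZIP4, stood at 9.22, 9.09, 9.08 and 9.24 in wild type and 5.64, 6.79, 6.44 and 6.80 in knockout. Wild type arrays agreed within a narrow band while knockout arrays varied, and Slc39a4 fell by 2.74 ± 0.21 (6.68-fold lower, adjusted p = 1.24e-07), against a difference of -1.003 with a second probe. Pparg, the nuclear receptor that drives lipid storage genes, was 6.98, 7.58, 7.16 and 6.72 in wild type and 5.47, 4.97, 5.09 and 5.51 in knockout. No array overlapped, and Pparg fell by 1.85 ± 0.19 (3.60-fold lower, adjusted p = 5.91e-06), against -0.27 with a second probe.

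Treh, the enzyme that splits the sugar trehalose, stood at 6.57, 6.51, 6.24 and 6.59 in wild type and 4.97, 4.53, 5.24 and 4.43 in knockout, where 2 of 4 arrays detected it. It fell by 1.68 ± 0.23 (adjusted p = 0.000304) with no overlap. Olig1, a transcription factor known from the oligodendrocyte lineage, fell by 1.89 ± 0.23 (adjusted p = 7.77e-05), from 7.96 ± 0.12 in wild type to 6.07 ± 0.48 in knockout (SD, n = 4). Enpp6, a phosphodiesterase that acts on choline lipids, fell by 1.34 ± 0.22 (adjusted p = 0.00246), and Bdh2, a cytosolic hydroxybutyrate dehydrogenase, by 1.13 ± 0.15 (adjusted p = 0.000247). Slco2a1, a transporter of prostaglandins, fell by 0.97 ± 0.12 (adjusted p = 0.000121), Slco1a4, a transporter of bile acids and drugs, by 0.91 ± 0.15 (adjusted p = 0.00265) and Slc13a2, a dicarboxylate transporter, by 1.16 ± 0.16 (adjusted p = 0.000322), the last detected in 1 of 4 knockout arrays. Plekhf1, an endosomal lipid-binding protein, fell by 1.13 ± 0.16 (adjusted p = 0.000464).

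The aldo-keto reductase Akr1c19 fell by 0.97 ± 0.16 (adjusted p = 0.00270). The carboxylesterases Ces1b and Ces1c, neighbours on chromosome 8 and close paralogs whose probes may share transcripts, fell by 0.99 ± 0.18 (adjusted p = 0.00780) and 0.60 ± 0.12 (0.0129). C9, the pore-forming last component of complement, stood at 11.98, 11.38, 11.74 and 11.76 in wild type and 10.88, 11.14, 10.80 and 10.36 in knockout. It fell by 0.91 ± 0.19 (adjusted p = 0.0232), but missed 0.05 in 5 of 16 fits without 1 array (up to 0.0976, without knockout replicate 4 on chow) and with the processed values of the authors (0.0976). With the mean of its detected probes the difference was -0.59 and did not pass (0.120). Ces1b missed 0.05 with those values (0.0595), and Ces1c in 2 of 16 fits without 1 array (up to 0.0691, without wild type replicate 2 on chow).

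The remaining 17 genes that passed, outside the rule for named genes, had smaller differences apart from Parp16 and Epop. Parp16, an enzyme of the endoplasmic reticulum membrane, stood at 7.68, 7.06, 7.03 and 6.71 in wild type and 9.88, 8.29, 7.43 and 9.04 in knockout, a rise of 1.54 ± 0.34 with overlapping groups (adjusted p = 0.0367). Epop, a partner of Polycomb complexes, rose by 1.01 ± 0.19 (adjusted p = 0.0111). Rises also comprised Frat1 (0.79), Fign (0.73), Fmo5 (0.69), Crip2 (0.68), Capn10 (0.66), St6gal1 (0.64), Wwc1 (0.59), Ddah1 (0.58), Lrg1 (0.53), Slc22a23 (0.49) and Dnajc30 (0.45), and falls Aox3 (-0.69) and Mknk2 (-0.47). Bin3 was detected in 3 of 4 wild type arrays and 0 of 4 knockout arrays, with 5.21 ± 0.27 in wild type and 4.56 ± 0.05 in knockout (SD, n = 4), and was at least 1.37-fold lower (adjusted p = 0.0424), a call lost in 9 of 16 fits without 1 array (up to 0.139, without wild type replicate 2 on chow) and with the authors' processed values (0.196). Hsd17b6, a steroid dehydrogenase, rose by 0.85 ± 0.18 (adjusted p = 0.0296).

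Nr0b2 lies on chromosome 4, and its neighbours were taken as the 100 measured genes nearest to it, 50 on each side, in the gene order of assembly GRCm38.p6. Of these 100 genes 12 passed (12%), 2 higher and 10 lower in knockout, against 64 of the other 8995 genes (0.712%). The share that passed was 6 of 20 (30.0%) among genes 1 to 10 places away, 3 of 30 (10.0%) from 11 to 25, 3 of 50 (6.00%) from 26 to 50 and 1 of 100 (1.00%) from 51 to 100. It was 0 of 157 beyond 100 and up to 200 places away. Groups that did not overlap were seen in 23 of the 100 genes (23%), against 6.52% of all genes. A knockout chromosome can carry other alleles of the strain in which the gene was targeted, and for genes this close loss of SHP and such alleles cannot be told apart in this design. The median difference of the 100 genes was -0.03.

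Extl1, a glycosyltransferase of the exostosin family, 14 places after Nr0b2, had the largest difference of the neighbours. Its level was 5.16, 4.80, 5.47 and 4.48 in wild type, where 3 of 4 arrays detected it, and 7.31, 7.70, 8.56 and 7.91 in knockout. All knockout arrays lay above wild type, and Extl1 rose by 2.89 ± 0.33 (adjusted p = 2.4e-05). Hmgn2, a nucleosome-binding protein 4 places after, stood at 8.50, 9.22, 8.44 and 8.31 in wild type and 10.06, 9.40, 10.40 and 9.97 in knockout. Knockout replicate 2 was only just above the highest wild type array, and Hmgn2 rose by 1.34 ± 0.21 (adjusted p = 0.00124). Hmgn2 has processed copies elsewhere in the genome, and its probe was not checked against them.

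Xkr8, a phospholipid scramblase active in dying cells, 14 places before Nr0b2, was detected in every wild type array, at 6.55, 6.70, 6.78 and 6.72, and in 0 of 4 knockout arrays, at 4.45, 4.38, 4.71 and 4.37. It was at least 3.83-fold lower in knockout (adjusted p = 1.11e-07). Gpn2, a GTPase 2 places after, stood at 8.32, 7.92, 8.10 and 8.35 in wild type and 6.94, 6.66, 6.77 and 6.79 in knockout. It fell by 1.38 ± 0.11 (2.61-fold lower, adjusted p = 4.14e-07) without overlap. Sytl1, a synaptotagmin-like protein of vesicle traffic 3 places before, was 7.07, 7.15, 7.09 and 7.66 in wild type and 5.38, 5.61, 5.93 and 5.58 in knockout. It fell by 1.62 ± 0.19 (adjusted p = 3.46e-05), with wild type replicate 4 the highest array. Serinc2, a membrane protein 29 places before, fell by 1.90 ± 0.21 (adjusted p = 2.4e-05) and Bsdc1, 45 places before, by 1.63 ± 0.14 (adjusted p = 9.14e-07). Zbtb8os, next to Bsdc1, was detected in 4 of 4 wild type and 0 of 4 knockout arrays (5.34 ± 0.36 and 4.36 ± 0.10, SD, n = 4) and was at least 1.50-fold lower (adjusted p = 0.00780). With the processed values of the authors Zbtb8os missed 0.05 (0.347).

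The other 4 neighbours that passed missed the threshold when certain single arrays were left out. Map3k6, a stress kinase, fell by 0.79 ± 0.15 (adjusted p = 0.0123), Sh3bgrl3 by 1.01 ± 0.21 (0.0263) and Paqr7, a membrane progesterone receptor, by 0.91 ± 0.20 (0.0274). Cd52, a surface antigen of lymphocytes and other leukocytes, stood at 7.10, 7.80, 8.12 and 7.90 in wild type and 6.76, 6.66, 5.81 and 6.69 in knockout. Knockout replicate 3 was lowest, the groups did not overlap, and Cd52 fell by 1.25 ± 0.26 (adjusted p = 0.0240). The adjusted p missed 0.05 in 2 of 16 fits without 1 array for Map3k6 (up to 0.0646, without knockout replicate 4 on chow) and in 4 of 16 for Cd52 (0.107, without wild type replicate 3 on chow). For Sh3bgrl3 it did so in 6 of 16 (0.103, without wild type replicate 3 on chow) and for Paqr7 in 6 of 16 (0.116, without wild type replicate 3 on chow). In bulk liver fewer cells of a type and less RNA per cell cannot be told apart. Of 18 lymphocyte and NK cell markers on the array 9 were tested and 0 passed, 2 at an unadjusted p below 0.05. The difference was negative for 8 of the 9, with a median of -0.35. Without wild type replicate 3 that median was -0.13, with Ccl5 at -0.39 against -1.10 and Cd8b1 at -0.13 against -0.53. Their summed linear level was 216 to 715 on wild type arrays and 221 to 258 on knockout arrays, and their part in the fall of Cd52 was not tested.

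**Figure D2:**
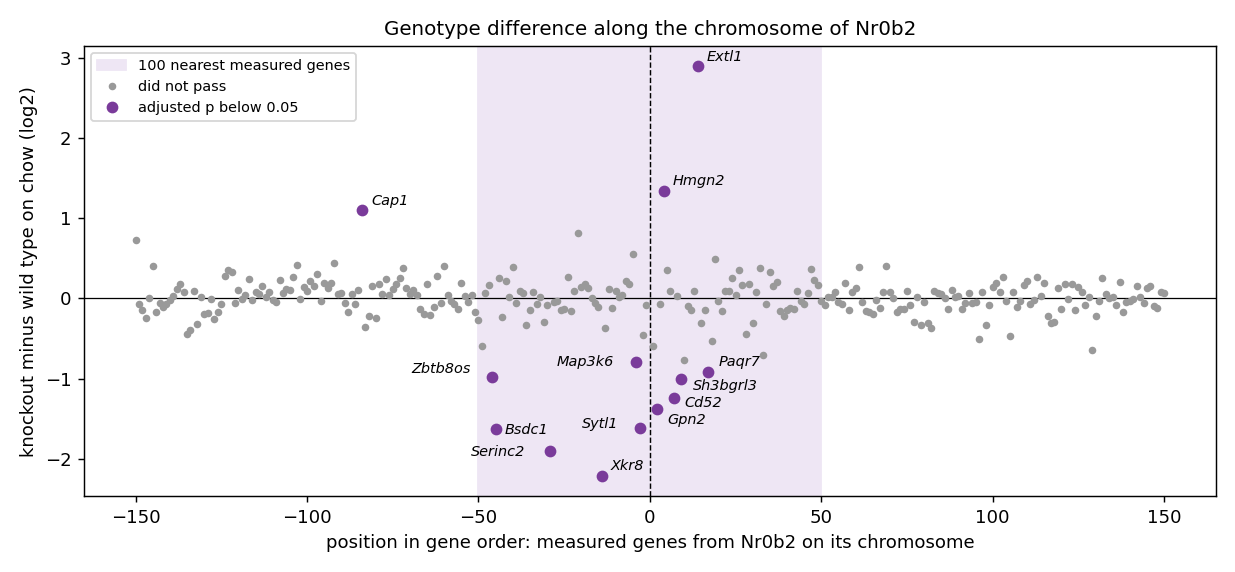
Difference between knockout and wild type on chow (log2, vertical axis) for measured genes within 150 places of Nr0b2, against their place in gene order (horizontal axis, 0 is Nr0b2). Purple points passed, grey points did not, and the shaded band holds the 100 nearest genes, 12 of which passed; Extl1 and Hmgn2 lie above 0, the other 10 below, and Cap1, 84 places before, is the next gene that passed.

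Beyond that neighbourhood, 3 of 456 other genes of chromosome 4 passed (0.658%), close to the background share. They were Cap1, 84 places before Nr0b2, Cyp7a1, 391 places before, and Ttpa, a vitamin E transfer protein 373 places before. Cap1 also passed on western diet, at 0.69 ± 0.11 (adjusted p = 0.000168). Whether alleles of the strain in which Nr0b2 was targeted reach as far as Cap1 was not tested. Ttpa rose by 0.38 ± 0.09 (adjusted p = 0.0438), but missed 0.05 in 13 of 16 fits without 1 array (up to 0.142, without wild type replicate 2 on chow).

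The second set of mice, on western diet, gave each gene a genotype difference between 8 other mice, although normalization, filter and the estimate of the spread were shared by all 16 arrays. On western diet 1799 of 9095 genes passed (19.8%), 8.82% higher and 11% lower in knockout. Of the 76 genes that passed on chow, 67 had the same sign on western diet and 52 passed there in the same direction, while 3 passed in the opposite one. The share of all 9095 genes with the same sign on both diets is not given here, so the counts by sign are a description. The 12 neighbours of Nr0b2 that passed on chow all on western diet too, in the same direction, for instance Extl1 at 2.16 ± 0.33 (adjusted p = 0.000111), Sytl1 at -1.44 ± 0.19 (2.68e-05) and Cd52 at -2.10 ± 0.26 (1.61e-05). For 0 of the 12 did the diet by genotype interaction, the western difference minus the chow difference, pass. Of the 64 genes elsewhere 40 passed on both diets in the same direction, 3 in opposite directions, and 21 did not pass on western diet.

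Several of the large chow differences were of like size on western diet. Asns differed by 3.30 ± 0.36 there (adjusted p = 3.09e-06), Serpina12 by -3.16 ± 0.30 (6.77e-07), Slc39a4 by -2.46 ± 0.21 (1.58e-07), Cav1 by 2.67 ± 0.20 (3.65e-08) and Csad by 2.03 ± 0.13 (3.66e-09). Their interactions did not pass, with estimates of -0.07 ± 0.50 for Asns, -0.11 ± 0.42 for Serpina12, 0.28 ± 0.29 for Slc39a4, 0.26 ± 0.28 for Cav1 and 0.09 ± 0.18 for Csad. Cyp7a1 was 1.62 ± 0.38 on western diet (adjusted p = 0.00533), and its interaction of -1.03 ± 0.54 did not pass (0.290).

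The interaction passed for 16 of the 76 genes, against 641 of all 9095 (7.05%), and in 14 of the 16 the difference was larger in size on chow. The 76 genes were chosen on the chow arrays, which also enter the interaction, so that split is a description. Hr had the lowest adjusted p of the 16, and on western diet it stood at 8.14, 7.55, 7.40 and 7.31 in wild type and 8.50, 9.12, 7.68 and 8.54 in knockout. The chow difference of 3.26 was 0.86 there, an interaction of -2.40 ± 0.32 (adjusted p = 0.000168). Nudt18, its neighbour, differed by -0.02 ± 0.15 on western diet (adjusted p = 0.955), and its interaction was -1.50 ± 0.21 (adjusted p = 0.000316). Robo1, an axon guidance receptor, rose by 0.81 ± 0.14 on chow (adjusted p = 0.00499) against 0.00 ± 0.14 on western diet, and its interaction was -0.80 ± 0.20 (adjusted p = 0.0207). Plekhf1 gave an interaction of 0.85 ± 0.23 (adjusted p = 0.0296). Gldn and Slc13a2 also passed (adjusted p = 0.0265 and 0.0145), but the sizes of their interactions are not measured, since Gldn was detected in 0 of 4 wild type arrays on chow and Slc13a2 in 0 of 4 knockout and 2 of 4 wild type arrays on western diet.

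In 3 genes the genotype difference passed on both diets with opposite signs. Aatk, a neuronal tyrosine kinase, stood at 8.95, 9.02, 9.04 and 8.75 in wild type and 7.12, 7.43, 7.95 and 7.11 in knockout on chow, and at 8.25, 6.93, 6.92 and 8.98 and 9.25, 9.18, 9.21 and 8.87 on western diet. Knockout was lower by 1.54 on chow (adjusted p = 0.0232) and higher by 1.36 ± 0.32 on western diet (0.00525), an interaction of 2.90 ± 0.46 (0.000778). The western groups overlapped, with wild type replicate 4 at 8.98 and knockout replicate 4 at 8.87. Wild type replicates 2 and 3, at 6.93 and 6.92, lay far below the other wild type arrays on that diet. App, the amyloid precursor protein, rose by 0.65 ± 0.11 on chow (adjusted p = 0.00246) and was -0.48 ± 0.11 on western diet (0.00341), an interaction of -1.13 ± 0.15 (0.000192). Tgfbr2, a receptor of TGF-beta, rose by 0.47 ± 0.11 on chow (adjusted p = 0.0376) and was -0.33 ± 0.11 on western diet (0.0326), an interaction of -0.80 ± 0.15 (0.00304). The chow call of Aatk was lost in 5 of 16 fits without 1 array (up to 0.0913, without knockout replicate 4 on chow), with the authors' processed values (0.113) and with the robust variance prior (0.108). That of Tgfbr2 was lost in 8 of 16 (0.126, without wild type replicate 2 on chow), with median scaling (0.448) and with the authors' processed values (0.0600), and its second probe gave 0.07. The chow call of App was lost with median scaling (0.180).

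Dct and Ephx1 differed more on western diet. Dct was 3.38 ± 0.27 there (adjusted p = 1.1e-07), an interaction of 1.63 ± 0.39 (0.0151), and Ephx1 was -1.10 ± 0.10 (2.59e-07), an interaction of -0.56 ± 0.14 (0.0169). Among the rest, Litaf, a regulator of endosomal traffic, rose by 0.49 ± 0.10 on chow (adjusted p = 0.0125) and Ywhag, a 14-3-3 protein, by 0.39 ± 0.08 (0.0274), while Pde4dip, myomegalin of the centrosome, fell by 0.42 ± 0.09 (0.0371) and Fam25c by 0.83 ± 0.15 (0.00821). Their interactions were -0.60 ± 0.13, -0.50 ± 0.12, 0.59 ± 0.13 and 0.80 ± 0.22. Of these, Litaf lost its chow call in 3 of 16 fits without 1 array (up to 0.0696, without wild type replicate 3 on chow), Ywhag in 5 (0.121, without wild type replicate 2 on chow) and Pde4dip in 7 (0.129, without knockout replicate 4 on chow). The chow groups of Fam25c overlapped, with wild type replicate 2 at 8.53 and knockout replicate 2 at 8.58.

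**Figure D3:**
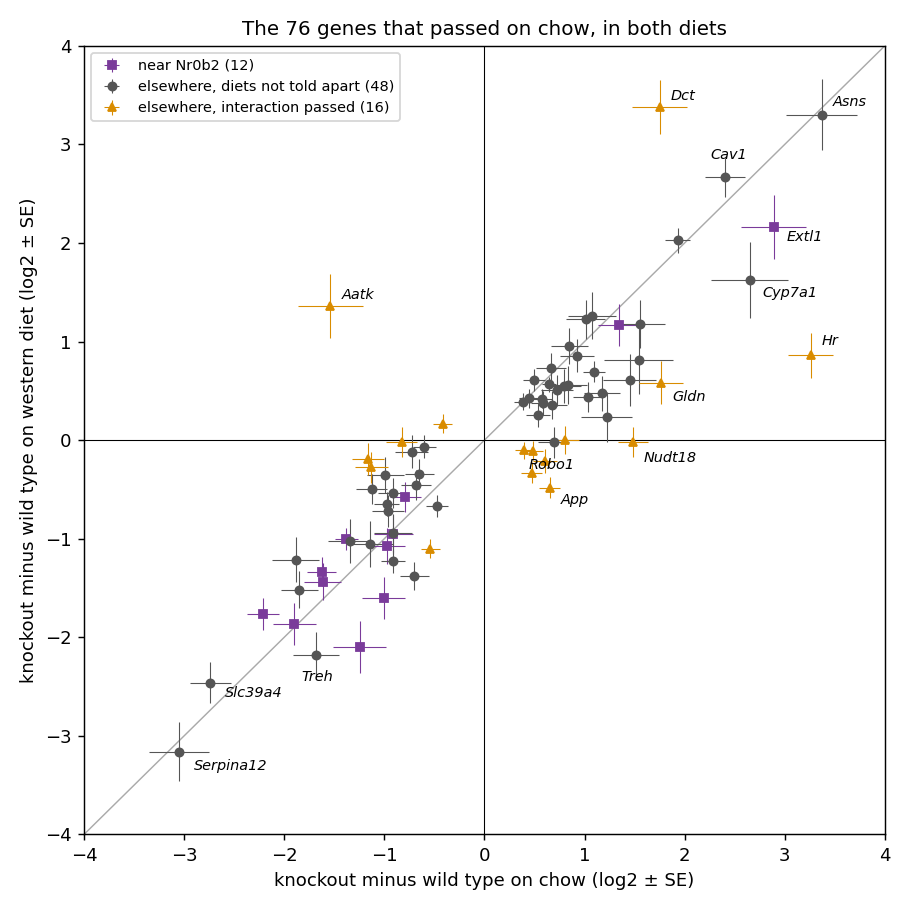
Difference between knockout and wild type (log2 ± SE) on chow (horizontal axis) and on western diet (vertical axis) for the 76 genes that passed on chow. Purple squares are the 12 neighbours of Nr0b2, orange triangles the 16 genes whose interaction passed and grey points the other 48, and the diagonal marks equal differences; Aatk, App and Tgfbr2 lie on the opposite side of 0 on western diet and Hr and Nudt18 fall well below the diagonal. Fitted values of Gldn, Ptgds, Bin3, Zbtb8os and Xkr8 rest on a chow group not above background.

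Across the liver programme, 29 lists of pathway genes were read by their counts and medians, beside 0.836% of all genes passing and the median of 0.0057 over all genes. Cholesterol synthesis had the highest list median, 0.53. Of its 18 tested members 2 rose and 0 fell, 16 had a positive difference, and in 10 the groups did not overlap, against 6.52% of all genes. Of the 18, 12 reached an unadjusted p below 0.05, against 10.7% of all genes. Sqle, squalene epoxidase, stood at 6.64, 6.29, 5.83 and 5.95 in wild type and 8.20, 7.17, 7.59 and 7.56 in knockout. It rose by 1.45 ± 0.26 (2.73-fold, adjusted p = 0.00638) without overlap, and a second probe gave 0.75. Dhcr7, the last enzyme of the pathway, stood at 5.75, 6.36, 6.14 and 5.52 in wild type and 6.81, 6.91, 6.72 and 6.67 in knockout, and rose by 0.83 ± 0.19 (adjusted p = 0.0438). Members that did not pass included Fdps at 1.18 ± 0.38 (0.190), Msmo1 at 1.01 ± 0.29 (0.133), Cyp51 at 0.87 ± 0.23 (0.0811) and Mvd at 0.76 ± 0.21 (0.112), and the lowest was Ebp at -0.19 ± 0.10 (0.524). Dhcr7 missed 0.05 in 10 of 16 fits without 1 array (up to 0.128, without wild type replicate 4 on chow), and both missed it with the processed values of the authors (Sqle 0.0696, Dhcr7 0.117).

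In the list of sterol export and LXR targets 2 of 11 rose and 0 fell, with a median of 0.07. Scarb1, the receptor that takes up cholesterol from HDL, stood at 6.87, 6.43, 6.001 and 6.92 in wild type and 7.51, 7.23, 7.78 and 7.41 in knockout. It rose by 0.93 ± 0.17 (adjusted p = 0.00750) with no overlap. Abcg5, which with Abcg8 exports sterols into bile, was 10.66, 10.66, 10.58 and 11.09 in wild type and 11.18, 11.54, 11.40 and 11.29 in knockout. It rose by 0.61 ± 0.12 (adjusted p = 0.0189), and Abcg8 gave 0.51 ± 0.12 and did not pass (0.0512). On western diet Abcg5 was -0.21 ± 0.12, and its interaction passed (-0.82 ± 0.17, adjusted p = 0.00790). Abcg5 missed 0.05 on chow in 4 of 16 fits without 1 array (up to 0.0834, without wild type replicate 3 on chow) and with median scaling (0.270). Both Abcg5 and Scarb1 missed it with the authors' processed values (0.0600 and 0.0510).

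Of 17 genes for bile acid synthesis Cyp7a1 alone rose and Ephx1, microsomal epoxide hydrolase, alone fell, by 0.54 ± 0.10 (adjusted p = 0.00570), and the list median was 0.0064. Cyp8b1, the sterol 12-hydroxylase, gave 0.28 ± 0.24 and did not pass (0.740). Among 11 transporters of bile acids and organic anions 0 rose and Slco1a4 fell, with a median of 0.22, and 4 reached an unadjusted p below 0.05. The bile salt export pump Abcb11 gave 0.31 ± 0.15 and did not pass (0.486). Of the receptors around SHP, Nr1h4 (FXR) gave 0.42 ± 0.12 (0.137), Nr5a2 (LRH-1) -0.26 ± 0.12 (0.458) and Hnf4a 0.03 ± 0.11 (0.954), none of which passed. In the list of 40 nuclear receptors and coregulators Hr rose and Pparg fell.

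The fall of Pparg was not matched by a count of falls among lipid storage genes. Of 20 genes in the list of lipid droplet proteins and PPARgamma targets Cav1 rose and Pparg fell, with a median of -0.07. The droplet proteins Plin2 at 0.05 ± 0.17 (0.953), Cidec at -0.59 ± 0.35 (0.593) and Plin4 at -0.68 ± 0.38 (0.560) did not pass. In fatty acid and triglyceride synthesis 0 of 24 genes passed, with a median of 0.11, and the outermost were the lipins Lpin1 at -1.07 ± 0.52 (0.483) and Lpin2 at -1.06 ± 0.28 (0.0837). In fatty acid oxidation and PPARalpha targets 0 of 27 passed (median -0.04), with Pdk4 at 0.94 ± 0.47 (0.499), and among 20 apolipoproteins and lipoprotein receptors 0 passed (median 0.13). An unadjusted p below 0.05 was reached by 7, 5 and 5 genes of these 3 lists.

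Of 25 genes of glucose handling Treh fell and 0 rose (median -0.04), and Igfbp1 gave 0.80 ± 0.35 (0.393). Of 24 genes of methionine, one-carbon and taurine metabolism Csad rose and 0 fell (median 0.11), with Bhmt, betaine-homocysteine methyltransferase, at 0.90 ± 0.25 (0.106). Of those 24, 8 reached an unadjusted p below 0.05, against 10.7% of all genes. In the urea cycle and amino acid catabolism 0 of 29 passed (median -0.05), in heat shock and endoplasmic reticulum chaperones 0 of 20 (-0.13) and in oxidative phosphorylation 0 of 40 (-0.06). An unadjusted p below 0.05 was reached by 6, 4 and 2 genes of these last 3 lists.

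Of 28 cytochromes of families 1 to 3, 2 fell and 0 rose, 8 had a positive difference, and the list median was -0.18. Of the 28, 9 reached an unadjusted p below 0.05, against 10.7% of all genes. Cyp2a12, a steroid hydroxylase, stood at 12.27, 12.23, 12.25 and 11.92 in wild type and 11.40, 11.15, 11.32 and 11.16 in knockout. It fell by 0.91 ± 0.12 (adjusted p = 0.000165) without overlap. Cyp2f2, an enzyme of periportal hepatocytes and the neighbour of Cyp2a12 on chromosome 7 among measured genes, was 13.02, 12.88, 13.13 and 12.96 in wild type and 12.59, 12.12, 12.31 and 12.17 in knockout. It fell by 0.70 ± 0.14 (adjusted p = 0.0206), and missed 0.05 in 4 of 16 fits without 1 array (up to 0.0867, without knockout replicate 4 on chow). Cyp2b10, a target of the receptor CAR, gave a larger difference that did not pass, -1.94 ± 0.46 (0.0554). Its arrays read 7.29, 7.83, 7.61 and 6.75 in wild type and 6.04, 4.80, 5.71 and 5.16 in knockout. Among 35 phase II enzymes 0 passed and 8 had a positive difference (median -0.14), with Gsta2 at -1.07 ± 0.28 (0.0844) and Sult5a1 at -0.99 ± 0.24 (0.0614), and 6 reached an unadjusted p below 0.05. In the NRF2 and oxidative stress list 1 of 24 rose, Osgin1, and 1 fell, Ephx1, while Nqo1, its usual marker, gave 0.37 ± 0.15 (0.341).

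**Figure D4:**
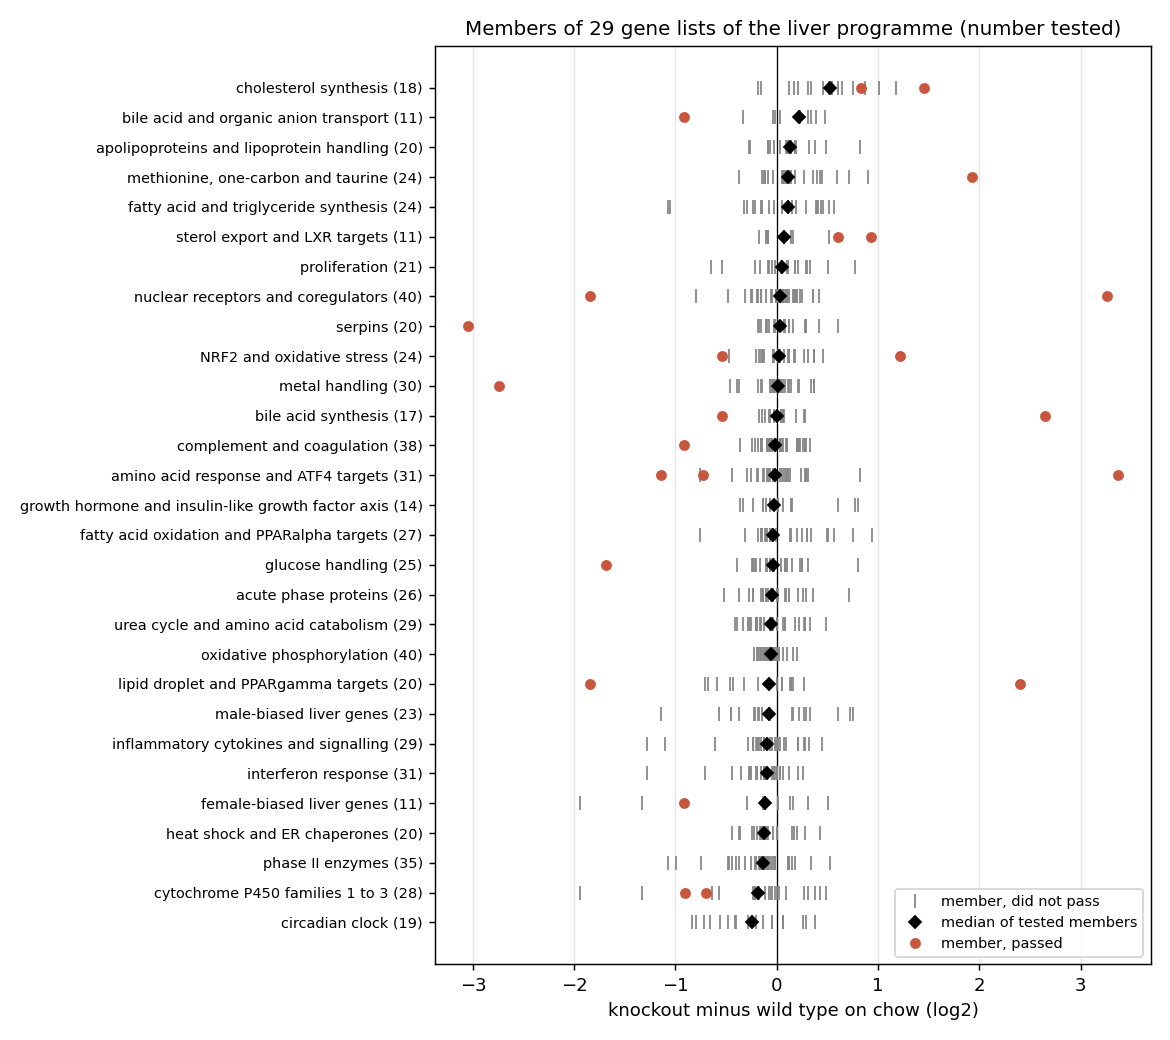
Difference between knockout and wild type on chow (log2, horizontal axis) for the tested members of 29 gene lists (vertical axis, number tested in brackets), ordered by list median. Ticks are members that did not pass, red points members that passed, and black diamonds list medians, from 0.53 for cholesterol synthesis to -0.24 for the circadian clock.

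The circadian clock had the lowest list median, -0.24. Of its 19 members 0 passed and 2 reached an unadjusted p below 0.05. Ciart, a clock repressor, stood at 5.64, 8.44, 7.83 and 7.40 in wild type and 5.91, 5.70, 9.22 and 5.12 in knockout, with a wide spread inside both groups, and Nr1d1 (REV-ERBalpha) gave -0.80 ± 0.29 (0.253). Of 23 male-biased and 11 female-biased liver genes 0 rose, and Slco1a4 of the female list fell (medians -0.08 and -0.11), and in the growth hormone axis 0 of 14 passed (median -0.03). The lists of serpins and of complement and coagulation each held 1 passing member. Serpina12 fell among the 20 serpins (median 0.03), and C9 among the 38 genes of complement and coagulation (median -0.01). An unadjusted p below 0.05 was reached by 4 of the 20 and 10 of the 38, against 10.7% of all genes. Of 30 genes of metal handling Slc39a4 fell (median 0.01). Acute phase proteins gave 0 of 26 (-0.05), interferon response 0 of 31 (-0.10), inflammatory cytokines 0 of 29 (-0.09) and proliferation 0 of 21 (0.06), with an unadjusted p below 0.05 in 4, 2, 4 and 4 genes. Lrg1, which rose by 0.53 ± 0.12 (adjusted p = 0.0397), was a member of none of these lists.

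Tested markers of other cells in the liver gave 0 that passed. These were 16 of macrophages and Kupffer cells (median -0.15), 14 of sinusoidal endothelium (-0.05), 14 of stellate cells and fibroblasts (0.02), 5 of neutrophils (-0.04), 5 of cholangiocytes (0.16), 3 of erythroid cells (-0.06), 3 of pancreatic acinar cells (0.01) and 1 of adipocytes. An unadjusted p below 0.05 was reached by 1 marker each of endothelium, stellate cells and erythroid cells. The summed level of the macrophage markers was 3306 to 4908 on wild type arrays and 3559 to 4371 on knockout arrays, and that of the stellate markers 5415 to 6893 and 5927 to 7353. One of the 12 hepatocyte markers fell, Cyp2f2, and 3 of the 12 reached an unadjusted p below 0.05. The sum of all 12 was 168026 to 174621 on wild type arrays and 143523 to 165366 on knockout arrays, which did not overlap. Sums of some other lists did not overlap either, in both directions. Cholesterol synthesis was 6468 to 7566 on wild type arrays and 8248 to 10556 on knockout arrays. Phase II enzymes were 100181 to 105237 and 92656 to 97823. The part of the hepatocyte marker sum in the falls of liver enzymes was not tested.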

How the data were processed

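The deposited non-normalized table holds, per the file headers, a signal intensity for each of 25697 probes and 16 arrays. Beside each intensity the deposited table gives a detection p-value, per the file headers. Both were exported with BeadStudio, per the submitters' processing notes; its version is not given in the sources used here. The processed values that the authors deposited are linear intensities whose normalization the sources used here do not state, and they served as an alternative (floored at 16, then log2).

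Signals were background-corrected and quantile-normalized with neqc of limma 3.58.1 (R 4.3.3, offset 16). The 13196 probes detected (p below 0.05) in 4 or more arrays were kept. Of these 12421 had 1 symbol in the platform annotation and 775 had none and were left out. The probe with the highest mean stood for a gene (9095 genes). A group mean model was fitted to all 16 arrays with lmFit and eBayes with an intensity trend (12 residual degrees of freedom), and tests were two-sided. A gene whose probes all missed detection in a group's 4 arrays has a lower bound as its fold. RefSeq names and gene order are from GRCm38.p6. The fit was tested on simulated arrays. Plots were drawn with matplotlib 3.10.9.

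The members, gene lists, motifs and the rule for named genes were chosen with earlier results of these data known. Named were 8 key genes, the 15 largest rises and 15 largest falls among non-overlapping genes outside the neighbourhood, every passing neighbour, up to 4 passing members of a list (else the 2 largest changes) and passing genes with a passing interaction. Other list members named with values were chosen after their values were seen. Slide positions were not stated and could not enter the fit. The number of arrays limits the precision, and the p-values measure the spread between individual mice of each group. Alternatives were the background correction, normalization, filter, probe rule, samples in the fit, variance prior, array weights, replicate block, neighbourhood width and leaving out each array.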

Additional observations from a re-analysis of the deposited data

Results flagged for a closer look

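The genotype difference of 16 genes differed between the diets by the interaction test (limma, western minus chow, log2). The interaction was 2.90 for Aatk, -0.82 for Abcg5, -1.13 for App, 1.63 for Dct, -0.56 for Ephx1, 0.80 for Fam25c and -2.40 for Hr. It was -0.60 for Litaf, -1.50 for Nudt18, 0.59 for Pde4dip, 0.85 for Plekhf1, -0.80 for Robo1, -0.80 for Tgfbr2 and -0.50 for Ywhag. The fitted values of -1.19 for Gldn and 0.97 for Slc13a2 rest on a group not above background and are no measured sizes. Adjusted p values ran from 0.000168 (Hr) to 0.0318 (Fam25c).

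In 15 of 248 groups of 4 arrays (124 genes on chow) 1 array stood far from the other 3, its gap to the nearest divided by the group's range exceeding Dixon's critical value, which chance does in about 1 in 20 groups. Wild type replicate 3 stood high for Cd8b1 (ratio 0.849), Gbp2 (0.851) and Pdgfra (0.929) and low for Litaf (0.890). Wild type replicate 4 stood high for Abcg5 (0.832) and Sytl1 (0.864) and low for Cyp2a12 (0.880) and Slco2a1 (0.838), and wild type replicate 1 low for Lpin1 (0.888) and Tyrobp (0.989). Knockout replicate 3 stood high for Chac1 (0.842) and low for Akr1c19 (0.884) and Cd52 (0.893), replicate 4 low for Robo1 (0.839) and replicate 2 high for Ttpa (0.843).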

How the results depend on the processing

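Of the 76 genes that passed, 34 passed under all 29 alternatives, 42 missed the threshold under at least 1 and 0 changed sign. The count of genes that passed was 48 (25 higher, 23 lower) with the authors' processed values and 124 (67 higher, 57 lower) with array weights. Median scaling left 21 higher and 39 lower against 40 and 36, with a median of all genes of -0.06. With the chow arrays fitted alone 61 genes were higher, and 62 with the chow arrays also normalized alone (totals 111 and 113). Leaving out 1 array gave totals from 49 (without wild type replicate 3 on chow) to 108 (without knockout replicate 3 on western diet), and counts of higher genes from 24 to 61, without the same arrays. The neighbours that passed numbered 8 to 12 on leaving out an array, 9 of the nearest 50 and 13 of the nearest 200. Whether the replicate numbers pair the mice is not stated in the labels. Deviations of same-numbered chow arrays correlated at 0.105, -0.086, -0.053 and 0.011. Over all same-numbered arrays the values ran from -0.166 (replicate 2, both genotypes on western diet) to 0.186 (replicate 1, wild type on both diets). Low values cannot exclude that same-numbered arrays were handled together. With the replicate block 70 genes passed (36 higher, 34 lower), 65 of them shared, with 11 neighbours and 18 interactions. Among small differences that did not pass, Cldn4 was 0 with the authors' processed values, and Hnf4a turned in sign to -0.089 with median scaling. On leaving out 1 array Clps ranged from -0.18 to 0.050 (without wild type replicate 1), Hba-a1 from -0.15 to 0.054 (without knockout replicate 2), Lep from -0.0071 (without wild type replicate 4) to 0.19 and Hnf4a from -0.014 (without wild type replicate 3) to 0.079, all on chow. The cause of these shifts was not tested. Genes near background have only bounds, and changes too small for 4 arrays a side were not detectable here.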

Other observations

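There were 4 pairs of genes that passed and lie next to each other among the measured genes outside the neighbourhood of Nr0b2, within a window of 5 measured genes. Hr and Nudt18 on chromosome 14 both rose (3.26 and 1.48), Ces1b and Ces1c on chromosome 8 both fell (differences of -0.99 and -0.60), and so did Cyp2a12 and Cyp2f2 on chromosome 7 (-0.91 and -0.70). Fmo5 and Pde4dip on chromosome 3 moved in opposite directions (0.69 and -0.42). Other probes gave 0.35 for Fmo5 and -0.49 and -0.07 for Pde4dip. This count was made after the values were seen. The number of pairs that random placement would give was not worked out, so the count does not show clustering.

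In some genes, picked after their values were seen, 1 array stood at the end of its group. Wild type replicate 3 on chow was the highest of its group for the chemokines Ccl5 (4.91, 5.95, 8.43 and 5.91 in wild type replicates 1 to 4) and Cxcl9 (6.93, 7.22, 9.28 and 6.60), for Gbp2, a GTPase induced by interferon (6.68, 6.84, 8.16 and 6.61), and for Cd8b1 (4.77, 5.01, 6.47 and 4.75). Knockout replicate 3 on chow was the highest of its group for Ciart (5.91, 5.70, 9.22 and 5.12 in knockout replicates 1 to 4) and the lowest for Pdk4, a kinase induced by fasting (8.11, 9.20, 6.28 and 9.06). None of these genes passed between genotypes on chow.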
